A study of Homo sapiens with 6 samples.

Results

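The genes described here are 44 genes of mitosis and the spindle checkpoint, taken by symbol from a table of 56303 genes in SW480 cells, which come from a colorectal adenocarcinoma. All 44 were found in the table and all 44 passed the filter on low counts, so none is missing from the comparisons. Their levels were compared between 3 libraries of cells carrying a hairpin against MORC2 (shMORC2) and 3 libraries of cells carrying a non-silencing hairpin (shCtrl). Both hairpins were delivered by lentivirus and the cells were selected with puromycin as stable clonal lines, and the number of hairpins or clones behind a group is not given in the sources used here. MORC2 is a nuclear ATPase of the microrchidia family, and the libraries were made to find transcripts and splicing events that differ when it is depleted.

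Entry into mitosis is driven by CDK1 bound to cyclin B, which the phosphatases of the CDC25 family switch on. Kinetochores then attach the centromeres to spindle microtubules, and the spindle checkpoint holds back the anaphase-promoting complex until every kinetochore is attached. Once it is released, securin and cyclin B are degraded, separase cuts cohesin, and the cell divides. Most of these genes are transcribed in a wave in G2, and in colorectal cancer cells their mRNA levels are widely used as a readout of proliferation. In bulk RNA, fewer cells in G2 and M phase and less RNA of a gene per cell cannot be told apart.

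MORC2 itself checked the labels. It stood at 46.1, 46.4 and 48.8 CPM (counts scaled by library size) in shCtrl replicates 1 to 3 and at 35.0, 29.3 and 27.2 CPM in shMORC2 replicates 1 to 3. The groups did not overlap, and the log2 fold change was -0.63 ± 0.10 (SE, adjusted p 0.000216 in edgeR), so 64.7% of the level in shCtrl remained. Libraries held 42092664 to 43434425 counts, of which the 44 genes took 0.505% to 0.631%. The colorectal epithelial markers KRT8, KRT18, KRT19, EPCAM, CDH1, VIL1 and CDX2 were present in all 6 libraries, while CDX1 had at most 4 counts. KRT20 and LGR5, also among the 10 listed, each had more than 3 counts in at least 1 library. The sums of the 10 genes were 20150, 26180 and 25870 CPM in shCtrl. In shMORC2 they were 19190, 26070 and 25650 CPM, so replicate 1 was lowest in both groups. Of the markers of other cell types, the summed level of 6 leukocyte genes was higher in shMORC2 (38.05 to 47.53 CPM in shCtrl, 59.13 to 110.4 CPM in shMORC2), through CD68, while PTPRC, which defines leukocytes, had at most 6 counts. In the other lists DCN had at most 2 counts, CDH5 2 and KDR 2. Other genes of these lists reached 514 counts for fibroblasts and 860 for endothelium. The sums of 6 fibroblast genes ran from 20.01 to 20.91 CPM in shCtrl and from 22.73 to 24.96 CPM in shMORC2. Those of 4 endothelial genes ran from 15.70 to 19.60 CPM in shCtrl and from 20.59 to 22.25 CPM in shMORC2. Both sums were thus higher in every shMORC2 library than in every control. The part of these levels in the results was not tested. The study describes the 3 replicates of a group as independent experiments, and p-values measure the spread between these libraries.

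The mitotic genes did not move in one direction. Of the 44 genes, 20 (45.5%) passed an adjusted p of 0.05 in edgeR's quasi-likelihood test, against 39.5% of the 21005 genes tested. The level was higher in shMORC2 for 5 genes (11.4%, against 19.9% of all genes) and lower for 15 (34.1%, against 19.6%). Among the 8696 genes in the same range of abundance, 50.3% were called, 23.6% as higher and 26.7% as lower. The median log2 fold change was -0.04 over the 44 genes and -0.01 over all genes, and the middle of the list ran from -0.32 to 0.10. Changes were small: the median size was 0.18 on the log2 scale, against 0.31 over all genes and 0.24 over genes of like abundance. The fold changes ran from -0.99 in CENPE to 0.54 in SPC25, so 0 of the 44 genes reached 1 in size and 7 were called with at least 0.5 in size, against 22.4% of all genes. For 21 genes (47.7%) the 3 shMORC2 values lay wholly on one side of the 3 shCtrl values, 7 above and 14 below, against 50.2% of all genes. With the replicate number as a block, 26 of the 44 genes were called, 8 as higher and 18 as lower, against 49% of all genes, 24.4% as higher and 24.5% as lower.

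**Figure D1:**
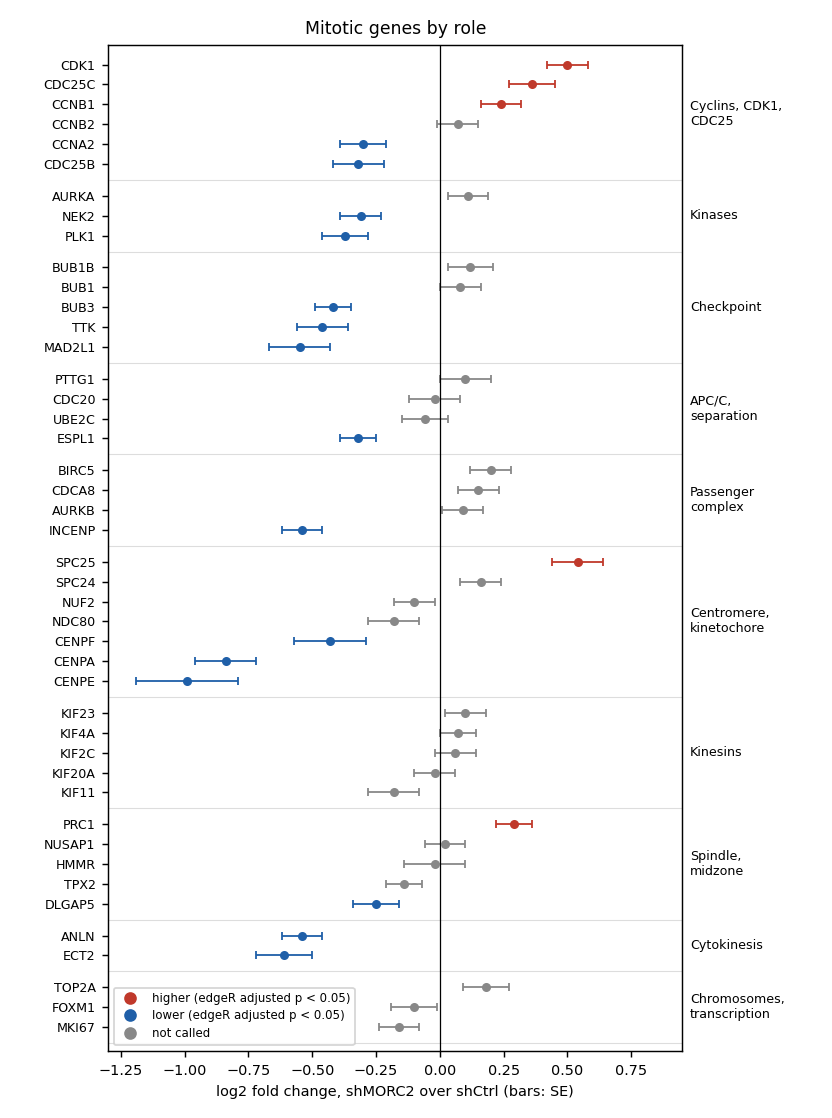
Fold changes of the 44 mitotic genes by role. The x axis is the log2 fold change of shMORC2 over shCtrl, points are fitted values of 3 against 3 libraries, bars are 1 SE, and colors give the call. The 5 higher and 15 lower genes spread over most roles, while the 5 KIF genes sit between -0.18 and 0.10.

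The genes shared a promoter feature that their choice did not use. The cell cycle genes homology region (CHR) is an element bound by the DREAM and MuvB complexes, which hold G2/M genes silent in early cycle phases and switch them on later, and it often lies near CCAAT boxes bound by NF-Y. The RefSeq table used here held promoter windows, from 250 bases before to 50 after a transcription start, for 37 of the 44 genes (47 windows, since some genes have several starts). A CHR motif, searched as TTTGAA on both strands or TTTAAA, which reads alike on both strands, was in a window of 32 of the 37 genes (86.5%), against 27.9% of 27305 genes with a window and 21.7% of the 11440 of these that were tested. TTTGAA alone was in 26 of the 37 (70.3%, against 18.2%). From 100 bases before the start to 50 after it, 31 of the 37 held a CHR motif (83.8%, against 13.6%). CCAAT on either strand was in 31 genes (83.8%, against 39.7%), and both motifs in 25 (67.6%, against 11.2%). A CHR motif and a CCAAT box share a letter in CDCA8 and MKI67, and boxes on the 2 strands overlap in HMMR and PTTG1.

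The CHR motif was common in the genes of every call. A CHR motif was in 11 of the 13 lower genes with a window, all 5 higher genes and 16 of the 19 genes not called. Both motifs were in 8 of these 13 lower genes, all 5 higher genes and 12 of the 19 genes not called. Only 5 genes were higher, and differences between these shares were not tested. It was not found in these windows of AURKB, BUB1, CCNA2, NEK2 and SPC24, of which CCNA2 and NEK2 were lower. Across the 47 windows, 27.7% had a CHR motif starting 50 to 26 bases before the start and 23.4% one in the next 25 bases, against 3.08% and 1.87% of 35116 windows. CCAAT boxes peaked further out, with 48.9% of the windows of mitotic genes holding one that starts 75 to 51 bases before the start, against 7.62%. A match is a description of letters and not a site shown to be bound in these cells.

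**Figure D2:**
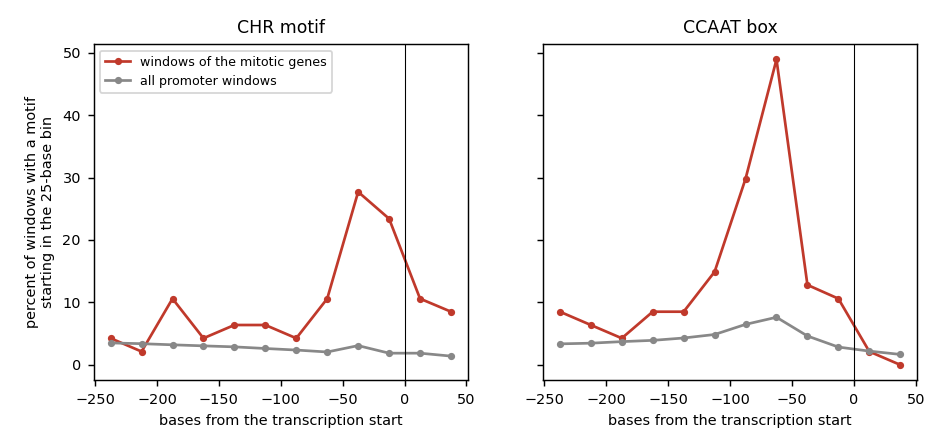
Position of CHR motifs and CCAAT boxes in promoter windows. The x axis is the distance in bases from the transcription start and the y axis the percent of windows with a motif starting in each bin, for the 47 windows of mitotic genes and all 35116 windows. The CHR peak reaches 27.7% just before the start and the CCAAT peak 48.9% further out.

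The promoters of 3 higher genes (CCNB1, CDK1, PRC1), 3 lower genes (PLK1, INCENP, CENPA) and 2 genes not called (CCNB2, KIF20A) are shown because each holds a CHR motif near its start and they differ in call. CCNB1 and KIF20A hold it only as TTTAAA, and the stretch of CENPA holds no CCAAT box. Each sequence is from RefSeq (GRCh38.p14), 5′ to 3′ on the gene's strand, from 125 bases before the start to 25 after it. Capitals mark TTTGAA and its reverse complement TTCAAA, the motif TTTAAA, and the box CCAAT with its reverse complement ATTGG.
CCNB1, chr5:69167025-69167174, plus strand: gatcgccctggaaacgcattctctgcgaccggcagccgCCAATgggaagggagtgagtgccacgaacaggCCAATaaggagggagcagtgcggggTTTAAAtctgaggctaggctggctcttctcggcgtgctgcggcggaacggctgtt
CDK1, chr10:60778353-60778502, plus strand: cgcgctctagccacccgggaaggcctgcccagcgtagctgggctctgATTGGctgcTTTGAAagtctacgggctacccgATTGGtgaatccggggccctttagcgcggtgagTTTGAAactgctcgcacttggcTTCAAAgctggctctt
PRC1, chr15:90994511-90994660, minus strand: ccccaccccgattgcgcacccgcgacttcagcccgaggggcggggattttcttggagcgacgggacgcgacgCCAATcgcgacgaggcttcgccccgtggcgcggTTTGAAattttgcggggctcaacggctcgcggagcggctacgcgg
PLK1, chr16:23678764-23678913, plus strand: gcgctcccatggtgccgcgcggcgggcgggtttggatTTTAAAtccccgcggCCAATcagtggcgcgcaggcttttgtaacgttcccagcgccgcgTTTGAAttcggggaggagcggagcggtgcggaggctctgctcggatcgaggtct
INCENP, chr11:62123886-62124035, plus strand: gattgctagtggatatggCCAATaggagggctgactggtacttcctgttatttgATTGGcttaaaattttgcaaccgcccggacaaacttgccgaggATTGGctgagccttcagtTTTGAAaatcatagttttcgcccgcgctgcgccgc
CENPA, chr2:26785931-26786080, plus strand: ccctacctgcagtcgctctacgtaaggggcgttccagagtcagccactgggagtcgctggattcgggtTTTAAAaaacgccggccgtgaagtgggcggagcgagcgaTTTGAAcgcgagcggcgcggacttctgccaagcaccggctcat
CCNB2, chr15:59105021-59105170, plus strand: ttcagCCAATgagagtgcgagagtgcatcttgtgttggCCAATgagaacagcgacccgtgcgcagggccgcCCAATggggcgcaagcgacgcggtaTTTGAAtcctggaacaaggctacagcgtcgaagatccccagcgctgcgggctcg
KIF20A, chr5:138178987-138179136, plus strand: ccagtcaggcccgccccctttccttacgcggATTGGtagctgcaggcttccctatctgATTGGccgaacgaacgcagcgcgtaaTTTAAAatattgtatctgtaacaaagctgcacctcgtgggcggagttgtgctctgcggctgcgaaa
The CHR motif nearest before the start began 30 bases before it in CCNB1, 29 in CCNB2 and PLK1, 20 in PRC1, 18 in CENPA, 13 in CDK1, 41 in KIF20A and 10 in INCENP. CDK1 also has a start further upstream that is not shown, where the nearest CHR motif began 131 bases before it. CCNB1 and CCNB2, whose proteins both bind CDK1, also had CCAAT boxes at like distances, 87 and 55 bases before the start in CCNB1 and 87 and 54 in CCNB2.

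CDK1 and its partners included most of the higher genes. Of the 6 cyclins, CDK1 and phosphatases, 3 were higher (CDK1, CDC25C, CCNB1), 2 lower (CCNA2, CDC25B) and 1 not called (CCNB2). For this and the later roles, the shares of all genes are 39.5% called, 19.9% higher and 19.6% lower. In the same range of abundance, 50.3% were called. Each role holds 2 to 7 genes, and differences between roles were not tested. CDK1 (chromosome 10, 60778331 to 60794852, plus strand, GRCh38), the kinase that drives mitotic entry, stood at 66.7, 62.5 and 68.6 CPM in shCtrl and at 92.9, 98.0 and 88.5 CPM in shMORC2. The lowest shMORC2 library lay above the highest shCtrl library, with a log2 fold change of 0.50 ± 0.08 (SE, adjusted p 0.000223 in edgeR), or 141% of the control level. CDC25C, which activates CDK1 at mitotic entry, stood at 17.5, 17.4 and 17.1 CPM in shCtrl and at 20.7, 23.0 and 23.2 CPM in shMORC2. The groups did not overlap (log2 fold change 0.36 ± 0.09 SE, adjusted p 0.00498 in edgeR). FAM53C shares 293 exonic bases with it on the other strand.

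CCNB1 (chromosome 5, 69167010 to 69178245), the main mitotic cyclin, stood at 142.5, 121.8 and 138.5 CPM in shCtrl and at 151.8, 167.8 and 156.5 CPM in shMORC2. All shMORC2 libraries were above all shCtrl libraries, but the gap in the replicate 1 pair was 0.09 on the log2 scale, against 0.46 in replicate 2. Its log2 fold change of 0.24 ± 0.08 (SE, adjusted p 0.0302 in edgeR) was no longer called without shCtrl replicate 2 (0.17, edgeR adjusted p 0.137), without shCtrl replicate 3 (0.27, 0.0586), without shMORC2 replicate 2 (0.20, 0.134) or without shMORC2 replicate 3 (0.26, 0.0684). CCNB2, the second B-type cyclin, stood at 71.6, 62.7 and 69.6 CPM in shCtrl and at 71.4, 73.3 and 69.9 CPM in shMORC2. Its groups overlapped, and the log2 fold change of 0.07 had a 95% interval from -0.09 to 0.24 (edgeR adjusted p 0.475).

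CCNA2, the cyclin of S phase and G2, went the other way from CCNB1. It stood at 29.6, 25.04 and 27.8 CPM in shCtrl and at 23.7, 22.6 and 20.8 CPM in shMORC2, with no overlap. The log2 fold change was -0.30 ± 0.09 (SE, adjusted p 0.0203 in edgeR). That call was lost without shCtrl replicate 1 (-0.24, edgeR adjusted p 0.0694), shCtrl replicate 3 (-0.29, 0.0709), shMORC2 replicate 2 (-0.30, 0.0587) or shMORC2 replicate 3 (-0.24, 0.0952). EXOSC9 shares 254 exonic bases with CCNA2 on the other strand. CDC25B, the phosphatase that acts on CDK1 at the centrosome, had a log2 fold change of -0.32 ± 0.10 (SE, adjusted p 0.0225 in edgeR), and lost the call without shCtrl replicate 2 (-0.29, 0.0829), shCtrl replicate 3 (-0.26, 0.0963) or shMORC2 replicate 1 (-0.22, 0.0621).

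PLK1 and NEK2 fell and AURKA did not pass the test. PLK1 (chromosome 16, 23677656 to 23690367, plus strand), which acts in centrosome maturation, spindle assembly and cytokinesis, stood at 103.5, 97.7 and 102.7 CPM in shCtrl and at 69.1, 82.1 and 84.3 CPM in shMORC2. Every shMORC2 library was below every shCtrl library, with the lowest value in shMORC2 replicate 1 (log2 fold change -0.37 ± 0.09 SE, adjusted p 0.00411 in edgeR). A gene on the other strand, CTD-2196E14.5, shares 553 exonic bases with PLK1 and had 217 to 312 counts. NEK2, a kinase that loosens the link between centrosomes, had a log2 fold change of -0.31 ± 0.08 (SE, adjusted p 0.00901 in edgeR) with no overlap. AURKA, the centrosomal Aurora kinase, stood at 45.3, 41.4 and 42.4 CPM in shCtrl and at 44.1, 48.5 and 46.8 CPM in shMORC2. The groups overlapped, with a log2 fold change of 0.11 and a 95% interval from -0.06 to 0.28 (edgeR adjusted p 0.287).

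**Figure D3:**
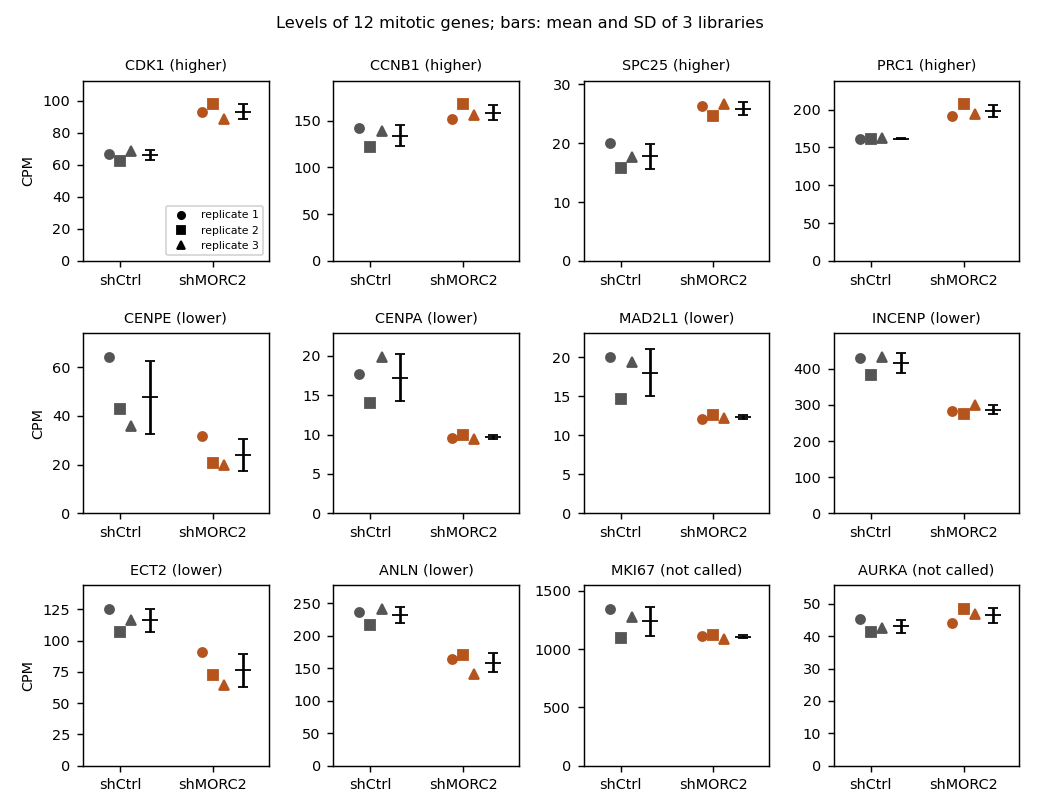
Levels of 12 mitotic genes in each library. Points are CPM values, marked by replicate number, and the bars beside them are the mean and SD of 3 libraries. CDK1, CCNB1, SPC25 and PRC1 lie above the controls, CENPE to ANLN below, and MKI67 and AURKA overlap.

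The spindle checkpoint genes split into 3 that fell and 2 that did not pass the test. MAD2L1, TTK and BUB3 were lower, while the BUB1 and BUB1B kinases had positive fold changes that were not called. MAD2L1 (chromosome 4, 120055608 to 120067074, minus strand), whose protein binds CDC20 to hold back anaphase, stood at 20.1, 14.7 and 19.4 CPM in shCtrl and at 12.1, 12.6 and 12.3 CPM in shMORC2. The shMORC2 libraries lay close together below the lowest control, shCtrl replicate 2. Its log2 fold change was -0.55 ± 0.12 (SE, adjusted p 0.00252 in edgeR), or 68.3% of the control level.

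TTK (chromosome 6, 80003887 to 80042527), the kinase MPS1 at the top of the checkpoint, stood at 24.1, 20.2 and 24.3 CPM in shCtrl and at 18.3, 15.5 and 15.8 CPM in shMORC2. The groups did not overlap (log2 fold change -0.46 ± 0.10 SE, adjusted p 0.00313 in edgeR). BUB3 (chromosome 10, 123154277 to 123170467), which brings BUB1 and BUB1B to kinetochores, stood at 57.7, 58.6 and 61.0 CPM in shCtrl and at 43.3, 43.4 and 45.4 CPM in shMORC2. It had one of the tightest spreads of the lower genes, with pair log2 ratios of -0.41, -0.43 and -0.42 and a log2 fold change of -0.42 ± 0.07 (SE, adjusted p 0.000536 in edgeR).

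BUB1 stood at 61.5, 55.5 and 55.4 CPM in shCtrl and at 60.8, 63.2 and 58.6 CPM in shMORC2, which overlap. Its log2 fold change was 0.08, with a 95% interval from -0.08 to 0.25 (edgeR adjusted p 0.424). BUB1B, which encodes the checkpoint protein BUBR1, stood at 119.8, 91.8 and 101 CPM in shCtrl and at 118.0, 112.9 and 108.4 CPM in shMORC2. The highest value of all was shCtrl replicate 1, and without that library the log2 fold change moved from 0.12 (edgeR adjusted p 0.345) to 0.23 (0.049). BUB1B shares 457 exonic bases with the readthrough gene BUB1B-PAK6 on the same strand, which had 155 to 212 counts.

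Among the genes of the anaphase-promoting complex and chromosome separation, 1 of 4 passed the test, ESPL1. ESPL1 (chromosome 12, 53268299 to 53293643), which encodes separase, the protease that cuts cohesin, stood at 38.8, 38.0 and 39.4 CPM in shCtrl and at 32.0, 30.6 and 30.7 CPM in shMORC2. The spread within each group was small beside the gap between them (log2 fold change -0.32 ± 0.07 SE, adjusted p 0.00469 in edgeR). CDC20, the activator of the complex, stood at 63.6, 62.0 and 70.9 CPM in shCtrl and at 55.2, 69.4 and 69.6 CPM in shMORC2. It overlapped, with a log2 fold change of -0.02 and a 95% interval from -0.23 to 0.19 (edgeR adjusted p 0.91), and a pseudogene copy, CDC20P1, had 38 to 100 counts. The ubiquitin-conjugating enzyme UBE2C and securin, PTTG1, had log2 fold changes of -0.06 and 0.10 (edgeR adjusted p 0.621 and 0.456).

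Of the 4 subunits of the chromosomal passenger complex, INCENP fell and 3 were not called. INCENP (chromosome 11, 62123973 to 62153163), the scaffold of the complex, stood at 428.6, 383.1 and 433.9 CPM in shCtrl and at 284.0, 275.7 and 299.8 CPM in shMORC2. It fell without overlap to 69.0% of the control level (log2 fold change -0.54 ± 0.08 SE, adjusted p 0.000144 in edgeR). AURKB, the kinase of the complex, stood at 81.0, 76.3 and 86.3 CPM in shCtrl and at 80.5, 87.7 and 90.6 CPM in shMORC2. Its groups overlapped (log2 fold change 0.09, 95% interval from -0.08 to 0.26, edgeR adjusted p 0.408). BIRC5, which encodes survivin, had all 3 shMORC2 values above the controls and a log2 fold change of 0.20 ± 0.08 (SE, adjusted p 0.0556 in edgeR). It was called with the replicate block (edgeR adjusted p 0.00921), without shCtrl replicate 1 (0.25, 0.0351) and without shMORC2 replicate 1 (0.24, 0.0309). CDCA8, which encodes borealin, also had no overlap, at 0.15 (edgeR adjusted p 0.14).

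The widest range was in the 7 centromere and kinetochore genes, which held both ends of the list. CENPE, CENPA and CENPF fell, SPC25 rose, and NDC80, NUF2 and SPC24 were not called. CENPE (chromosome 4, 103105806 to 103198409, minus strand), a kinesin that carries chromosomes to the spindle equator, had 64.5, 42.7 and 35.8 CPM in shCtrl and 31.7, 20.7 and 19.8 CPM in shMORC2. It was highest in replicate 1 of both groups, and the lowest shCtrl library still stood above the highest shMORC2 library. The log2 fold change was -0.99 ± 0.20 (SE, adjusted p 0.00177 in edgeR), with pair log2 ratios of -1.01, -1.02 and -0.84, and 50.5% of the control level was left.

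CENPA (chromosome 2, 26764289 to 26801067), the histone H3 variant that marks centromeres, stood at 17.8, 14.1 and 19.9 CPM in shCtrl and at 9.58, 9.92 and 9.46 CPM in shMORC2. The shMORC2 libraries had an SD of 0.237 CPM (n = 3) and lay below every control. The log2 fold change was -0.84 ± 0.12 (SE, adjusted p 0.000172 in edgeR). SLC35F6 shares 138 exonic bases with CENPA on the same strand and had 551 to 650 counts. CENPF, a large kinetochore and nuclear protein gene, had a log2 fold change of -0.43 ± 0.14 (SE, adjusted p 0.0294 in edgeR) with overlapping groups, and like CENPE it was highest in replicate 1 of both groups. It was not called by DESeq2 (-0.43, adjusted p 0.152), by limma on RPKM (adjusted p 0.0993 with 1 added and 0.101 with 0.1 added), without shCtrl replicate 1 (-0.24, edgeR adjusted p 0.115), without shMORC2 replicate 2 (-0.41, 0.104) or without shMORC2 replicate 3 (-0.32, 0.158).

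Of the 4 subunits of the NDC80 complex, which binds microtubules at the kinetochore, SPC25 rose and 3 were not called. SPC25 (chromosome 2, 168834132 to 168913371, minus strand) stood at 19.96, 15.7 and 17.6 CPM in shCtrl and at 26.3, 24.6 and 26.6 CPM in shMORC2, with no overlap. Its log2 fold change of 0.54 ± 0.10 (SE, adjusted p 0.000826 in edgeR) was the highest of the 44 genes. SPC24, its direct partner, had 0.16 (edgeR adjusted p 0.145, and 0.0492 with the replicate block). NUF2 had -0.10 (edgeR adjusted p 0.362). NDC80 had -0.18 (edgeR adjusted p 0.162), and -0.29 (0.0174) without shMORC2 replicate 1.

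Of the 5 motor genes named KIF, 0 were called by edgeR's test, while CENPE, the kinesin described among the kinetochore genes, fell. Their log2 fold changes ran from -0.18 in KIF11, which pushes the spindle poles apart, to 0.10 in KIF23, a subunit of centralspindlin, and all 5 had overlapping groups. KIF4A and KIF2C, a chromosome-bound motor and a microtubule depolymerase, had 0.07 and 0.06, and KIF20A, a motor of the midzone, had -0.02. KIF11 was called with the replicate block (edgeR adjusted p 0.0182) and without shMORC2 replicate 1 (-0.28, 0.0287). The edgeR test gave 0 of the 5 an unadjusted p under 0.05, where the lowest was 0.101 in KIF11, and DESeq2 also called 0 of them.

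In the spindle and midzone group PRC1 rose and DLGAP5 fell. PRC1 (chromosome 15, 90966038 to 90995629, minus strand), which crosslinks midzone microtubules, stood at 161.2, 161.6 and 162.3 CPM in shCtrl and at 191.9, 207.2 and 194.5 CPM in shMORC2. The control spread was 0.562 CPM (SD, n = 3), and the log2 fold change was 0.29 ± 0.07 (SE, adjusted p 0.00514 in edgeR). PRC1-AS1 shares 406 exonic bases with it on the other strand and had 894 to 1138 counts. DLGAP5, which stabilizes kinetochore fibers, had overlapping groups and a log2 fold change of -0.25 ± 0.09 (SE, adjusted p 0.049 in edgeR). It lost its call under 9 of 14 alternatives, among them without shCtrl replicate 1 (-0.18, edgeR adjusted p 0.161), shCtrl replicate 3 (-0.23, 0.143), shMORC2 replicate 2 (-0.27, 0.0932) and shMORC2 replicate 3 (-0.18, 0.215). TPX2, which activates AURKA on the spindle, had all 3 shMORC2 values below the controls at -0.14 (edgeR adjusted p 0.122, and 0.0307 with the replicate block). NUSAP1 and HMMR, which bind microtubules, had 0.02 and -0.02.

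Both cytokinesis genes fell. ANLN (chromosome 7, 36389806 to 36453791), which encodes the anillin scaffold of the contractile ring, stood at 236.1, 217.0 and 241.0 CPM in shCtrl and at 164.4, 170.1 and 141.3 CPM in shMORC2. The groups were well apart (log2 fold change -0.54 ± 0.08 SE, adjusted p 0.000257 in edgeR). ECT2 (chromosome 3, 172750682 to 172821474), the exchange factor that activates RhoA at the division plane, stood at 125.4, 106.9 and 116.8 CPM in shCtrl and at 91.0, 72.5 and 64.9 CPM in shMORC2. It also did not overlap, at a log2 fold change of -0.61 ± 0.11 (SE, adjusted p 0.0008 in edgeR), or 65.4% of the control level.

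MKI67, TOP2A and FOXM1, which are used as general markers of proliferating cells, were not called by edgeR or by DESeq2. MKI67, which encodes the Ki-67 antigen, stood at 1345, 1099 and 1272 CPM in shCtrl and at 1111, 1123 and 1091 CPM in shMORC2. Its groups overlapped through shCtrl replicate 2, and without that library the log2 fold change went from -0.16 (edgeR adjusted p 0.151) to -0.24 (0.0417). It was also called with the replicate block (edgeR adjusted p 0.0269). TOP2A, the topoisomerase that untangles sister chromatids, stood at 444.0, 380.2 and 406.8 CPM in shCtrl and at 499.1, 472.1 and 420.3 CPM in shMORC2. It overlapped, with a log2 fold change of 0.18 (edgeR adjusted p 0.121), and was called as higher with the replicate block (0.0116). FOXM1, a transcription factor of G2/M genes, stood at 86.5, 72.4 and 85.9 CPM in shCtrl and at 78.8, 70.2 and 78.5 CPM in shMORC2. The groups overlapped, at a log2 fold change of -0.10 with a 95% interval from -0.29 to 0.08 (edgeR adjusted p 0.368). ITFG2 shares 781 exonic bases with FOXM1 on the other strand.

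Libraries of the same group also differed over the 44 genes. In shCtrl, replicate 2 had the lowest value for 32 of the 44 genes (33.1% of all genes), and replicate 1 the highest for 27 (36.4%). The median difference of the 44 genes from the control mean was 0.06, -0.09 and 0.02 on the log2 scale in shCtrl replicates 1 to 3, and -0.07, 0.02 and -0.07 in shMORC2 replicates 1 to 3, where the median of all genes was 0. Taking libraries of the same number together, the median log2 ratio of shMORC2 over shCtrl was -0.12, 0.06 and -0.10 in pairs 1 to 3. Pair 2 gave the highest of the 3 ratios for 36 of the 44 genes, against 34.7% of all genes. A total of 20 genes were lower in all 3 pairs, 11 higher in all 3 and 13 of mixed sign, against 34.4% of all genes lower and 33.6% higher in all pairs. The summed level was 6154, 5344 and 5813 CPM in shCtrl and 5313, 5354 and 5109 CPM in shMORC2. The replicate 2 control stood within the range of the shMORC2 sums.

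**Figure D4:**
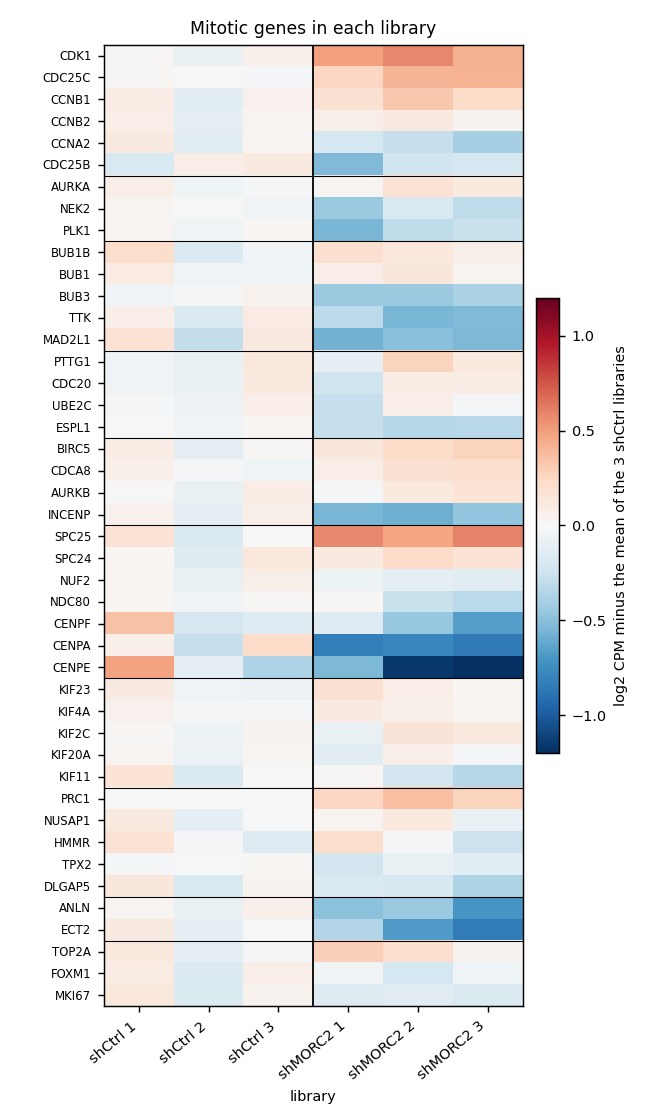
The 44 mitotic genes in each library. Color is log2 CPM minus the mean of the 3 shCtrl libraries, columns are libraries and rows are genes grouped by role in the order of the text. CENPE, CENPA and ECT2 are blue in all shMORC2 columns, CDK1 and SPC25 red, and the shCtrl 2 column is bluer than the other shCtrl columns for most genes.

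Levels between genes are compared per length, as RPKM, which divides the counts by exon length and library size. The length covers all annotated exons of a gene, 5748 bases in MAD2L1, and may exceed that of the transcripts present. Ranks between genes depend on it. In shCtrl the highest were MKI67 at 97.0 ± 10.7, INCENP at 93.0 ± 6.29 and TPX2 at 77.3 ± 1.30 RPKM (SD, n = 3). TOP2A at 63.9 ± 6.0, CDC25B at 57.7 ± 5.09 and CCNB1 at 52.6 ± 4.66 RPKM followed (SD, n = 3). MKI67 and INCENP do not differ beyond their spread. The lowest were MAD2L1 at 3.15 ± 0.528, ESPL1 at 4.37 ± 0.0992, TTK at 5.00 ± 0.508 and CENPE at 5.08 ± 1.71 RPKM (SD, n = 3), and the last 2 do not differ beyond theirs. All 4 of these low genes were called lower, as were 34.1% of the 44 genes. The list was cut at 4 genes, and a link between level and call was not tested. In shMORC2 INCENP stood at 63.8 ± 3.01, TPX2 at 69.6 ± 1.67 and TOP2A at 71.9 ± 7.34 RPKM (SD, n = 3). INCENP and TOP2A do not differ beyond their spread there.

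Other genes of the same machinery were read from a list of 101 that holds none of the 44. Of these, 47 (46.5%) were called, 17 as higher (16.8%) and 30 as lower (29.7%). Over all genes tested the shares were 39.5%, 19.9% and 19.6%. In the abundance range of the 44 genes they were 50.3%, 23.6% and 26.7%, and the list of 101 was not matched by abundance. The median log2 fold change of the list was -0.07. Without shMORC2 replicate 2 or 3 the count was 30 or 31 of the 101, with 18 or 19 lower. Of all genes, 30.3% or 29% were called in these fits, so the share in the list was then near that of all genes. Without shCtrl replicate 2, 33 of the 101 were called, against 29.8% of all genes in either direction, and 10 of them were higher. The shares of all genes by direction were not computed for these fits. The highest were CDKN1A, CDC26, MIS12, ENSA and ZWINT. CDKN1A, which encodes the CDK inhibitor p21, stood at only 1.82 to 3.78 CPM in shCtrl and 3.99 to 5.91 CPM in shMORC2 (log2 fold change 0.89 ± 0.23 SE, adjusted p 0.00782 in edgeR). CDC26, a subunit of the anaphase-promoting complex, had 0.74, MIS12, a kinetochore subunit, 0.73, ENSA, an inhibitor of the phosphatase PP2A, 0.60, and ZWINT, a kinetochore protein, 0.54. Among the lowest were the spindle pole gene ASPM and the kinesin KIF18A at -0.79 each, ANAPC16 at -0.67, the checkpoint gene KNTC1 at -0.56, and LIN54, whose MuvB protein binds CHR elements, at -0.55.

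By role, 9 of the 26 further kinetochore genes were higher (34.6%, against 19.9% of all genes) and 3 lower (11.5%, against 19.6%). Of the 11 further spindle genes, 6 were lower (54.5%, against 19.6% of all genes) and the other 5 were not called. Subunits and partners of the anaphase-promoting complex were called in 12 of 17 cases (70.6%, against 39.5%), with 4 higher and 8 lower. Of the genes that restrain CDK1, WEE1 fell (log2 fold change -0.38 ± 0.13 SE, adjusted p 0.0346 in edgeR) and PKMYT1 rose (0.22, SE 0.08, edgeR adjusted p 0.0325). MYBL2, a transcription factor that joins MuvB, fell (-0.31, SE 0.09, edgeR adjusted p 0.0181). FZR1, the second activator of the anaphase-promoting complex, was not called (-0.07, edgeR adjusted p 0.51), nor was the centrosomal gene CDK5RAP2 (-0.12, edgeR adjusted p 0.184).

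The DNA replication and S-phase genes were the nearest other group of cell cycle genes. Of 48, 19 (39.6%) were called, 11 as higher (22.9%) and 8 as lower (16.7%). These shares were close to the 39.5%, 19.9% and 19.6% of all genes tested. In the abundance range of the 44 mitotic genes, 50.3% were called, 23.6% as higher and 26.7% as lower. The median log2 fold change of the 48 genes was 0.11. The highest were GINS1 (0.80), RFC2 (0.65), GINS2 (0.59), RRM2 (0.59) and GINS4 (0.51), which act at the replication fork or in nucleotide supply. The lowest were CDC7 (-0.63), E2F2 (-0.62), CDT1 (-0.42), DBF4 (-0.41) and SLBP (-0.39), and CDC7 and DBF4 form the kinase that fires replication origins. The count called moved with the fit: it was 11 without shCtrl replicate 3, 12 without shCtrl replicate 2 and 30 with the replicate block. Of all genes, 31%, 29.8% and 49% were called in these fits, in that order. The count of higher genes was 17 without shCtrl replicate 1 and 5 without shCtrl replicate 2. That of lower genes was 4 without shCtrl replicate 3 or shMORC2 replicate 2 and 5 without shMORC2 replicate 3. The shares of all genes by direction were not computed for these fits. The share called as lower was 16.7% here and 34.1% in the 44 mitotic genes, and the difference between the lists was not tested.

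**Figure D5:**
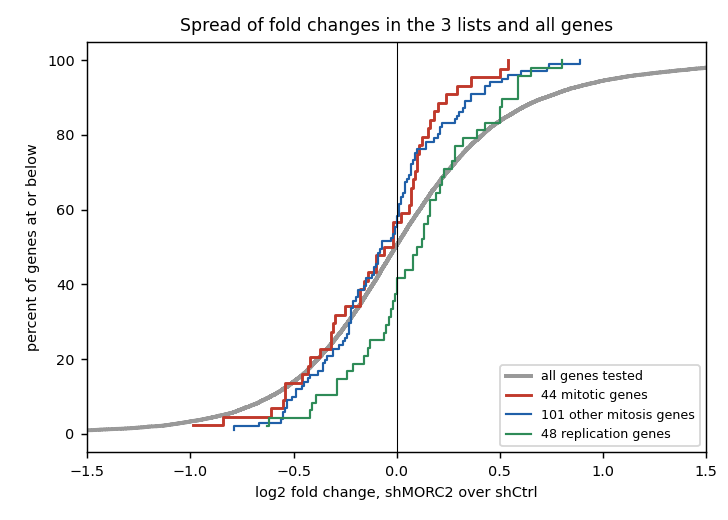
Cumulative spread of fold changes. The x axis is the log2 fold change of shMORC2 over shCtrl and the y axis the percent of genes at or below it, for the 44 mitotic genes, the 101 other mitosis genes, the 48 replication genes and all 21005 genes tested. The mitotic genes lie within -0.99 to 0.54, inside the spread of all genes, and the replication genes sit further right, with a median of 0.11.

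Splicing events, which the libraries were made to compare, were listed for 5 of the 44 genes. The whole list held 1449 events in 1181 genes, where 21005 genes were tested for their level. The list holds only events that the authors kept, and its header does not say which group is shMORC2, so reads are pooled over all 6 libraries and no direction is given. In FOXM1 an exon of 45 bases had 384 inclusion and 67 skipping reads, or 81.0% inclusion after correction for length. In HMMR an exon of 48 bases had 118 and 174 reads (33.1%). In CENPA an exon of 78 bases had 120 and 7 reads (91.5%), and in CENPE one of 159 bases had 266 and 13 reads (90.2%). NUSAP1 had a pair of mutually exclusive exons of 158 and 117 bases, with 956 and 2051 reads. The lengths of the 4 skipped exons are multiples of 3, and each exon is coding in at least 1 GENCODE v44 transcript, so that skipping keeps the reading frame. Single libraries held 15 to 90 reads for these 4 events.

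The 3 shortest of these exons are printed as read from GRCh38, 5′ to 3′ on the gene's strand. What these exons contribute to the proteins was not tested.
FOXM1, chr12:2865355-2865399, minus strand: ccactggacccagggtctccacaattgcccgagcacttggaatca
HMMR, chr5:163467701-163467748, plus strand: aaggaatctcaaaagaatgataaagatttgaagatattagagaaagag
CENPA, chr2:26792756-26792833, plus strand: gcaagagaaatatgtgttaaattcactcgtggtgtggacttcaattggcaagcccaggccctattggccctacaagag
Each is preceded by AG and followed by GT in the genome, the usual ends of introns. CENPA and CENPE, the 2 genes with the lowest fold changes, are also in the splicing list, while the gene levels of FOXM1, HMMR and NUSAP1 were not called. A link between level and splicing was not tested.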

How the data were processed

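Gene levels were measured by mRNA sequencing in 6 libraries, 3 shCtrl and 3 shMORC2, grouped by their labels. The authors deposited raw counts per gene symbol, and RPKM values that they computed from these counts. The submitters' processing notes name Trimmomatic 0.36, STAR 2.5.3a, featureCounts of Subread 1.5.1, edgeR 3.12.1 and GRCh38, with no role or order. The kit is stranded and adds molecular identifiers. The strand setting of the counting and the collapsing of identifiers are not given in the sources used here, so reads of a gene and an exon on the other strand may be mixed. The authors also deposited a list of splicing events from rMATS, whose p-values and inclusion differences are their own comparison and were not used. A summary table of events was not used. The tables held 0 columns of samples outside the series.

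R 4.3.3 and edgeR 4.0.16 were used to fit the counts of all genes by quasi-likelihood, after filterByExpr and TMM, on the group alone, with Benjamini-Hochberg adjustment over 21005 genes and a threshold of 0.05. The SE was computed as the size of the log2 fold change divided by the square root of F. CPM used TMM-scaled library sizes. The script was tested on simulated data. Libraries of the same number deviated together, with correlations of 0.333, 0.165 and 0.149 for replicates 1 to 3 over all genes, while those between different numbers reached 0.121 (shCtrl 3 with shMORC2 2). Each library correlated best with its own number, so the numbers were taken to pair the libraries, on these values alone. The main fit leaves this pairing out and called 39.5% of all genes and 20 of the 44. The fit with the replicate block called 49% and 26 of the 44, so some genes given as not called were called there. Replicates were not the same library, since they differed beyond sampling noise (chi-square per degree of freedom 6.83 to 23.9). At these depths of 42092664 to 43434425 counts, counting error averaged over all genes is small beside the spread between libraries. For single genes with close libraries, such as CENPA in shMORC2 or PRC1 in shCtrl, this was not tested. A small SD there need not mean a precise level.

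Alternatives were DESeq2 1.42.0, other scalings and filters on low counts, the replicate block, limma 3.58.1 on the deposited RPKM as log2(RPKM + 1) or with 0.1 added where the mean RPKM was 1 or more, a fold threshold, and leaving out each library. The 44 genes and the lists were chosen with earlier results of these data known. Values per library are given for MORC2, for 18 genes that lead their roles, and for the 5 highest and 5 lowest fold changes. Of the other lists the 5 highest and 5 lowest called genes are named, with CDKN1A, WEE1, PKMYT1, MYBL2, FZR1 and CDK5RAP2 whatever their values. One gene that this rule names is not reported here. KNL1 was read under its older symbol CASC5.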

Additional observations from a re-analysis of the deposited data

How the results depend on the processing

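Of the 20 mitotic genes called, 15 kept their call and direction in all 14 alternatives fitted for single genes, and 8 of the 24 not called were called in at least 1 of them. Among the 44 genes, the count called ran from 16 to 22, that of higher genes from 4 to 7 and that of lower genes from 12 to 16 when single libraries were left out. The replicate block kept all 20 calls and added 6, of which 3 were higher (8 in all), and a log2 fold change of at least 0.5 left 7 genes, 1 higher and 6 lower. The median log2 fold change of the 44 genes stayed between -0.08 and -0.02, and that of MORC2 between -0.74 and -0.55 with single libraries left out. Genes near 0 turned sign. CDC20 and HMMR went from -0.02 to 0.00 with upper-quartile scaling. With single libraries left out, CDC20 ran from -0.07 to 0.09, UBE2C from -0.14 to 0.03, KIF20A from -0.07 to 0.03, NUSAP1 from -0.03 to 0.08 and HMMR from -0.14 to 0.10. With single libraries left out, the 101 other mitosis genes gave 30 to 43 calls (10 to 18 higher, 18 to 28 lower) and the 48 replication genes 11 to 23 (5 to 17 higher, 4 to 9 lower). The replication genes gave 30 calls, 19 higher, with the replicate block, and 12, of which 7 higher and 5 lower, with limma on log2(RPKM + 1) and on log2(RPKM + 0.1) alike. TTTGAA alone lowered the share of genes with a promoter motif to 70.3%. The cause of these moves was not tested. A smaller count without a library comes with fewer libraries in the fit. In those fits 29% to 39.2% of all genes were called, against 39.5% with every library. Other scalings moved the median of all genes by at most 0.02.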
